A study of Rattus norvegicus with 2 samples.

Results

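Osteoclasts, the multinucleated cells that dissolve bone and calcified cartilage, were examined as single-cell RNA profiles from rat cartilage. A cell was taken as an osteoclast when Mmp9 (a secreted gelatinase) reached at least 1000 CPM (the gene's part of the UMIs of that cell, scaled to a total of 1000000; a UMI, or unique molecular identifier, marks 1 captured RNA molecule) and Atp6v0d2 (a subunit of the proton pump) had at least 2 UMIs. By that rule 115 of 14078 cells were osteoclasts, 88 of them from the CIA library and 27 from the control library. The CIA library (collagen-induced arthritis) came from cartilage of Lewis rats given type II collagen with Complete Freund's Adjuvant and taken at day 14, and the control library from cartilage of untreated Lewis rats, which the series' design text calls sham. The sources used here give neither the joint, nor the age and sex of the rats, nor the number of animals behind each library. With 1 library per group no difference below has a replicate check, so no test was made: each interval is an exact 95% interval for counting error alone, and a difference between the libraries cannot be told apart from a difference between 2 preparations. Macrophages of the same libraries (Lyz2 of at least 20000 CPM and Mmp9 under 1000 CPM, 3228 CIA and 1154 control cells) served as the related cell type. Endothelial cells (at least 2 UMIs of Cdh5, 571 CIA and 686 control cells with median depths of 9049 and 12258.5 UMIs) gave a rough background of free RNA for osteoclast and macrophage genes. Their own expression and mixed cells were not set apart from free RNA, and 20 CIA and 19 control cells called doublets stayed among them.

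Osteoclasts form when precursors of the monocyte and macrophage lineage receive CSF1 and RANKL, switch on the transcription factor NFATc1 and fuse. A mature osteoclast seals itself to the mineral through an integrin and actin ring, pumps protons into the closed space through a vacuolar ATPase of the lysosomal type, and secretes cathepsin K and other proteases that digest the exposed collagen. In inflammatory arthritis these cells are known for the erosion of bone at the joint margin.

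The cells carried the genes of the lineage beyond those used to choose them. All 13 osteoclast markers that the files list, which include Mmp9 and Atp6v0d2 of the rule, had at least 1 UMI among the members of both libraries. That is a low bar for summed cells, since Calcr met it with 1 UMI in 1 control member. The summed CIA macrophages had a UMI of each of the 13 too, so detection alone does not set the members apart. Ctsk (cathepsin K, the main collagen-degrading protease of the osteoclast) reached 10000 CPM in 86 of 88 CIA members (97.7%) and in 21 of 27 control members (77.8%), against 3 of 3228 CIA and 2 of 1154 control macrophages. Acp5 (tartrate-resistant acid phosphatase, the classical histochemical marker) reached 1000 CPM in 84 CIA members and 23 control members. By the rule itself, Mmp9 had a median of 12877 CPM in CIA members (range 1109 to 38661) and 8809 CPM in control members (1027 to 27550), and Atp6v0d2 a median of 32.5 UMIs (2 to 182) in CIA members and 15.0 UMIs (2 to 101) in control members.

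The edge of the rule was narrow for Mmp9 and wider for Atp6v0d2. The lowest member had 1109 CPM of Mmp9 in the CIA library and 1027 CPM in the control library, and the highest cell below the limit with enough Atp6v0d2 had 970 CPM in the CIA library and 659 CPM in the control library. Of the cells with high Mmp9, 3 CIA and 5 control cells had no Atp6v0d2 UMI and 2 CIA and 4 control cells had 1, and 1 member of each library had exactly 2. A further 82 CIA and 47 control cells had at least 2 UMIs of Atp6v0d2 with Mmp9 under the limit. Their median Lyz2 was 52063 CPM in the CIA library and 25918 CPM in the control library, and 7 CIA and 6 control cells among them had at least 10000 CPM of Ctsk.

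Some members stood apart. Control cells with unlike profiles weigh more, since that library has 27 members: 1 control member held 75128 CPM of S100a8, a neutrophil protein, with 2201 CPM of Ctsk and 147 CPM of Acp5, and another held 35248 CPM of Col1a1, a fibroblast and osteoblast collagen. Markers of other cell types exceeded 1% of the UMIs in 5 CIA and 3 control members. Scrublet called 2 CIA members and 1 control member doublets, and 1 of these CIA cells had the highest Lyz2 of any member, 24791 CPM. Of the 52 barcodes that occur in both libraries, 0 belonged to members in both. For some of the counts and genes that these cells change, values without them or the share of UMIs in 1 cell are given below.

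Osteoclasts made up 1.02% of CIA cells (88 of 8622, 0.819% to 1.26%) and 0.495% of control cells (27 of 5456, 0.326% to 0.719%). Macrophages were also a larger share of the CIA library, 37.4% against 21.2% of the control library. Counted among osteoclasts and macrophages together, osteoclasts were 2.65% in the CIA library (2.13% to 3.26%) and 2.29% in the control library (1.51% to 3.31%), with overlapping intervals. Among cells with at most 20% mitochondrial UMIs the share was 0.863% in the CIA library (74 of 8575) and 0.277% in the control library (15 of 5411).

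Depth and RNA quality differed from macrophages and between the libraries. Osteoclasts had a median of 21810 UMIs and 3533 genes in the CIA library and 15774 UMIs and 2821 genes in the control library, against 9976.5 and 12948 UMIs in macrophages of the CIA and control libraries. With each cell thinned to 8000 UMIs the median number of genes was 2099 in 73 CIA osteoclasts and 2036 in 20 control osteoclasts, beside 2144 and 2077.5 in CIA and control macrophages. Mitochondrial transcripts took a median of 8.31% of UMIs in CIA osteoclasts (range 1.57% to 57.9%) and 16.3% in control osteoclasts (4.77% to 59.0%), against 5.61% and 5.39% in CIA and control macrophages. More than 20% was reached by 14 of 88 CIA osteoclasts (15.9%, 8.98% to 25.2%) and 12 of 27 control osteoclasts (44.4%, 25.5% to 64.7%), and by 4 CIA and 2 control macrophages. Osteoclasts were thus 14 of the 47 CIA cells and 12 of the 45 control cells above that limit.

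**Figure D1:**
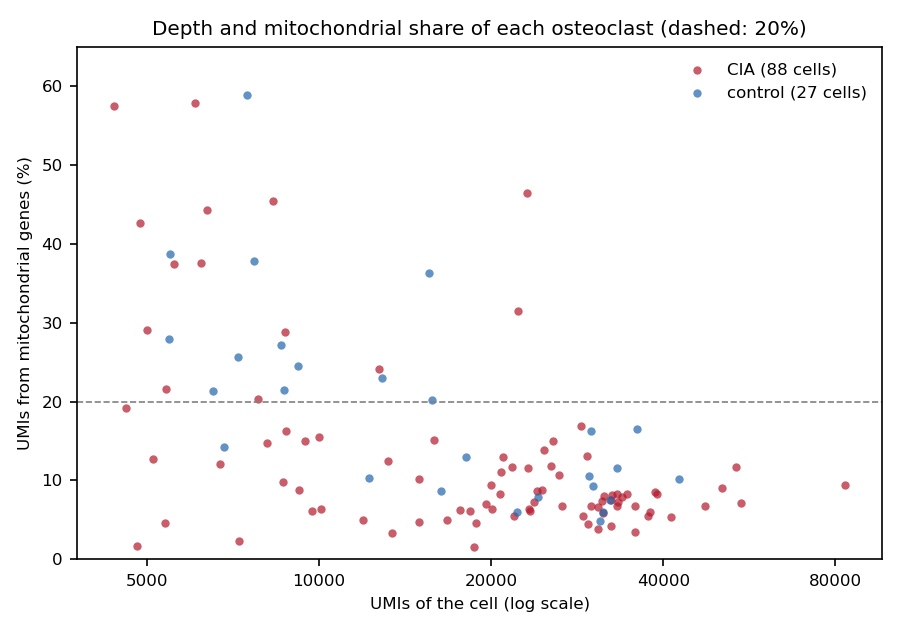
UMIs per cell (log axis) against the percent of UMIs from mitochondrial genes for the 88 CIA and 27 control osteoclasts, 1 point per cell, with a dashed line at 20%. The 14 CIA and 12 control cells above the line lie mostly at the shallow end, with median depths of 6297.5 UMIs in the CIA library and 8146 UMIs in the control library.

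The plot of depth against mitochondrial share separates cells above the 20% line from deeper cells below it. In the CIA library the median depth was 6297.5 UMIs above the line and 23906.5 UMIs at or below it, and in the control library 8146 and 29950 UMIs. Ctsk was lower above the line, at a median of 30908 CPM against 56118 CPM in the CIA library and 20851 CPM against 57735 CPM in the control library. Mmp9, a gene of the rule, was not lower there, at 16590 against 12303 CPM in the CIA library and 9448 against 8809 CPM in the control library. Spearman's rho between UMIs and mitochondrial percent was -0.37 over the 88 CIA cells and -0.72 over the 27 control cells, a description of cells that share a library, in which the total enters both measures.

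Enzymes of the resorption space were among the most abundant transcripts. Ctsk was the most abundant gene of the members outside the mitochondrial genome, with 57977 CPM in the summed CIA osteoclasts (cell median 53125, range 4047 to 129210) and 49283 CPM in control osteoclasts (median 32815, range 2201 to 80501). CIA macrophages had 334 CPM and control macrophages 397 CPM, which makes the ratio of osteoclasts to macrophages 174 in the CIA library (170 to 177) and 124 in the control library (121 to 127). Endothelial cells had 176 CPM in the CIA library and 140 CPM in the control library. Acp5, the phosphatase, ranked 6 with 11198 CPM in CIA osteoclasts (median 9036, range 336 to 37764) and 10958 CPM in control osteoclasts (median 8240, range 147 to 32855), 32.2 times the macrophage level in the CIA library and 36.0 times in the control library. Ctsk and Acp5 varied together over the cells of a library, with Spearman's rho of 0.75 in 88 CIA cells and 0.85 in 27 control cells, while rho between Ctsk and the macrophage lysozyme Lyz2 was -0.27 and -0.39 in CIA and control cells. These values describe cells that share a library and, for CPM, a common total.

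**Figure D2:**
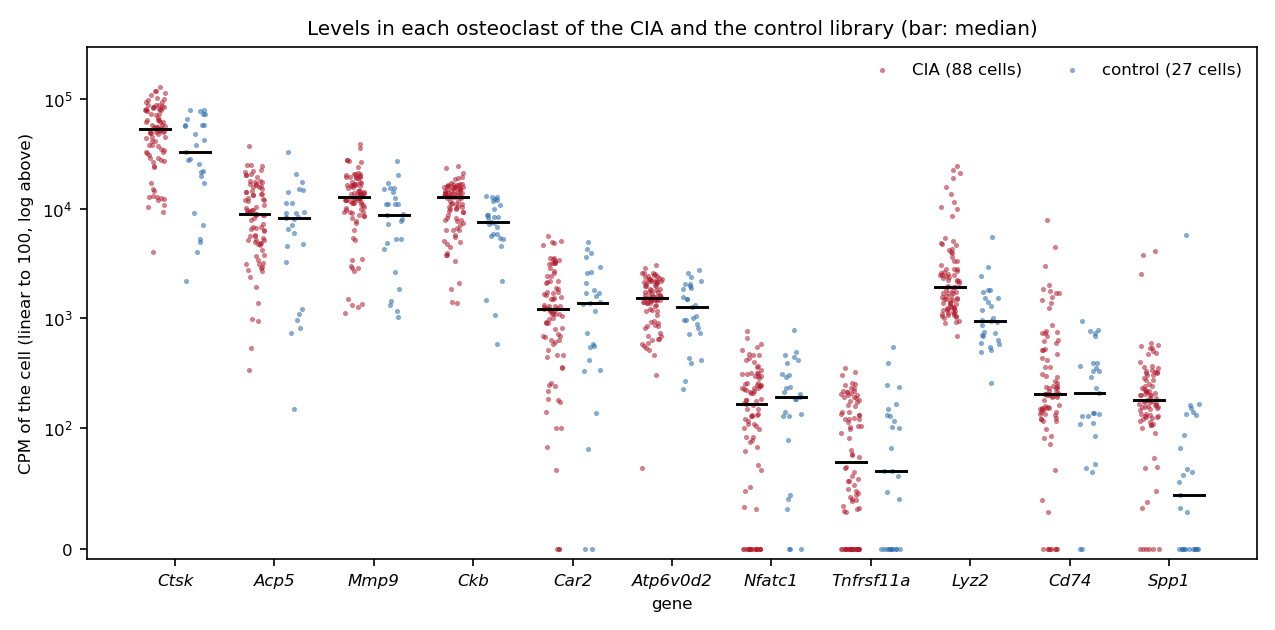
CPM per cell (symmetric log axis) of 11 genes in the 88 CIA (left) and 27 control (right) osteoclasts, 1 point per cell, bar at the median. Ctsk medians are 53125 and 32815 CPM, and the point clouds of the libraries overlap for every gene drawn.

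Against macrophages of the same library, genes were counted as higher or lower by a rule of size: at least 2-fold with the counting interval wholly beyond 1.5-fold, for genes whose summed UMIs of both sides came to 100 or more. In the CIA library 640 of 9515 genes measured were higher (6.73%) and 1360 lower (14.3%), and in the control library 484 of 7917 were higher (6.11%) and 844 lower (10.7%). The median gene stood at a log2 ratio of -0.15 in the CIA library and -0.18 in the control library. The cells had been chosen by 2 genes of this contrast and macrophages by Lyz2, so what follows describes the cells and supports nothing about them. The genes furthest above macrophages in both libraries began with Gal (galanin, a neuropeptide), at 14190 CPM in CIA osteoclasts (cell median 7479, range 0 to 67069) and 13265 CPM in control osteoclasts (median 3882, range 0 to 81286). CIA macrophages had 18.0 CPM of it and control macrophages 9.05 CPM, and 78 of 88 CIA and 25 of 27 control osteoclasts had a UMI.

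Several transport and enzyme genes followed. Car2 (carbonic anhydrase, which supplies the protons that are pumped) had 1786 CPM in CIA osteoclasts (median 1203, range 0 to 5586) and 1849 CPM in control osteoclasts (median 1387, range 0 to 5008), 619 times macrophages in the CIA library (511 to 756) and 259 times in the control library (215 to 315). Slc9b2 (a sodium-proton exchanger) had 910 CPM in CIA and 854 CPM in control osteoclasts, 334 and 238 times the CIA and control macrophages. Mt3 (a metallothionein, which binds zinc and copper) had 10190 CPM in CIA and 16357 CPM in control osteoclasts, 105 and 68.1 times macrophages. Myo1d (an unconventional myosin) had 859 CPM in CIA and 588 CPM in control osteoclasts, and Arsb (a lysosomal sulfatase that acts on chondroitin and dermatan sulfate) 1940 and 1794 CPM. Creatine handling was represented by Ckb, the brain-type creatine kinase that regenerates ATP, at 12734 CPM in CIA osteoclasts (median 12724) and 8523 CPM in control osteoclasts (median 7523), and by the creatine transporter Slc6a8 at 194 and 176 CPM. The ratio to macrophages was 24.5 for Ckb and 31.7 for Slc6a8 in the CIA library and 18.6 and 19.9 in the control library. Dhrs9 (a short-chain dehydrogenase), Cd84 (a receptor of the SLAM family), Lnx1 (a ubiquitin ligase), Xpr1 (a phosphate exporter), S100a3 (a calcium-binding protein) and Tgfb2 (a growth factor of the TGF-beta family) were 19.6 to 42.5 times macrophages in the CIA library and 21.1 to 42.5 times in the control library.

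The start regions of genes furthest above macrophages are shown so that the letters behind this group can be read. RefSeq promoters on GRCr8, from 250 bases before to 50 after the annotated start, matched 13 of the 20 genes. Below are the 2 of highest level, Ctsk and Gal, and the 3 others in which an AP-1 motif (TGANTCA) or a MITF E-box (TCATGTG or TCACGTG) was found on either strand. Each runs 5′ to 3′ along the gene's strand, and capitals mark the motif, where overlapping matches are run together. The windows are chr2:185747298-185747597 on the plus strand (Ctsk), chr1:210084523-210084822 on the minus strand (Gal), chr3:74555435-74555734 on the plus strand (Dhrs9), chr14:33868321-33868620 on the plus strand (Lnx1) and chr13:86859740-86860039 on the plus strand (Cd84).
Ctsk: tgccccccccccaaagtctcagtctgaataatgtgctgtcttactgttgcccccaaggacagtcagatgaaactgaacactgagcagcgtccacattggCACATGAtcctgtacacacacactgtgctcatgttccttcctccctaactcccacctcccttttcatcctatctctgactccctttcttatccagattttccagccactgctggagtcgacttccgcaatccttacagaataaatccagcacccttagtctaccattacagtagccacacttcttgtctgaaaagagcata
Gal: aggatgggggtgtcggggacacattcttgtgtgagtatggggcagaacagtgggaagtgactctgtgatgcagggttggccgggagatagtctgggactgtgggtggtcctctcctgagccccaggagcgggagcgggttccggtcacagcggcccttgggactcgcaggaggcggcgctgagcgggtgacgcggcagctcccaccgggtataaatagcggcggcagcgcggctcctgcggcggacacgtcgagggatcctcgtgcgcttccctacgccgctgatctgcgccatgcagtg
Dhrs9: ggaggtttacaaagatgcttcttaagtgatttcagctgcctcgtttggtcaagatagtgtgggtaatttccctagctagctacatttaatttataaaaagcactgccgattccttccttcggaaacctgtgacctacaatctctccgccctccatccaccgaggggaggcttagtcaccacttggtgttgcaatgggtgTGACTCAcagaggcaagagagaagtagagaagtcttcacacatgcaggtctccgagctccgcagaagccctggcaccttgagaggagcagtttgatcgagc
Lnx1: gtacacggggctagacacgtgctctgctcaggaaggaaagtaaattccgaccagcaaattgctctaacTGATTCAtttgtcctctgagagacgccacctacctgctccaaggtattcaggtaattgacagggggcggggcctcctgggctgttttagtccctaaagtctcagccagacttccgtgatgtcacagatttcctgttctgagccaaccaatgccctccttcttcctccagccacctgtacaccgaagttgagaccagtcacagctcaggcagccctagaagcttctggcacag
Cd84: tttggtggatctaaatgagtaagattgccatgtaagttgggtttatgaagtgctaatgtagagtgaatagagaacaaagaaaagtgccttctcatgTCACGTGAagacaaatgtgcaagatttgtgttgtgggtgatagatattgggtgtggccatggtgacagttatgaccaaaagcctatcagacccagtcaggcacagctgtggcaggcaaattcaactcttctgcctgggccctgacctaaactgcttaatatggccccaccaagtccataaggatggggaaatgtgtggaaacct
The AP-1 motif was in 2 of the 13 promoters (Dhrs9 and Lnx1), against 7.33% of all 33469 RefSeq promoters of this length. The MITF E-box, which overlaps no AP-1 match here, was in 2 of 13 (Ctsk, on the opposite strand, and Cd84), against 6.67% of all. The core GGAAA bound by NFAT factors was in 9 of 13, against 62.7% of all, and is not capitalised. The PU.1 motif GAGGAAGT was in 0 of 13, against 2.42% of all. A match is a run of letters in this window and no more than that.

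The acid-secreting machinery was above macrophages almost throughout. Of 22 genes of the vacuolar ATPase and its partners, 20 stood higher and 1 lower in the CIA library (median log2 ratio 2.26), and of 21 measured in the control library 18 were higher and 1 lower (median 1.97). The list held 26701 CPM in CIA and 23047 CPM in control osteoclasts, against 5919 CPM in CIA and 5733 CPM in control macrophages. Tcirg1, the pump's a3 subunit used by osteoclasts, had 726 CPM in CIA and 610 CPM in control osteoclasts, 5.02 and 4.26 times macrophages. Its counterpart Atp6v0a1, the a1 subunit, was the 1 gene lower in each library, at 6.60 CPM (13 UMIs) in CIA and 5.92 CPM (3 UMIs) in control osteoclasts, against 51.1 and 53.5 CPM in CIA and control macrophages. Atp6v0c, of the membrane ring that carries the protons, had 8406 CPM in CIA and 6856 CPM in control osteoclasts, and Slc4a2, which exchanges bicarbonate for chloride, 240 and 211 CPM, 12.5 and 14.3 times macrophages. Clcn7, the chloride-proton exchanger of the ruffled border, was low in level but not in its ratio to macrophages. It had 10.7 CPM (21 UMIs) in CIA and 17.8 CPM (9 UMIs) in control osteoclasts. In the CIA library that was 3.41 times macrophages (2.04 to 5.46), and the gene counted as higher. In the control library Clcn7 was 4.37 times macrophages (1.92 to 8.79), with too few UMIs to be measured. Its partner Ostm1 had 143 and 154 CPM in CIA and control osteoclasts, and Snx10 and Plekhm1, which serve vesicle traffic to that border, were 5.56 and 5.25 times macrophages in the CIA library and 5.70 and 3.83 times in the control library.

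Other proteases split by gene. Of 10 resorption enzymes, which include Ctsk and Acp5 but not the rule gene Mmp9, 4 stood higher and 3 lower in the CIA library (median log2 ratio 0.13) and 5 were higher and 3 lower in the control library (0.51). Mmp14, a membrane-bound collagenase, had 590 CPM in CIA and 436 CPM in control osteoclasts, and Ctsz 4133 and 3787 CPM, both above 3 times macrophages in each library. The endolysosomal cathepsins Ctsb, Ctsl and Ctss were the 3 lower genes: Ctss had 45.7 CPM in CIA and 27.6 CPM in control osteoclasts, against 949 and 811 CPM in CIA and control macrophages. Ctsl had 281 CPM in CIA and 146 CPM in control osteoclasts, against 1032 and 882 CPM in CIA and control macrophages.

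Receptors and adhesion molecules showed the lineage's inputs. Tnfrsf11a, which encodes the RANKL receptor RANK, had 95.5 CPM in CIA and 82.9 CPM in control osteoclasts, 4.73 and 4.19 times macrophages. Csf1r, the CSF1 receptor, had 883 CPM in CIA and 811 CPM in control osteoclasts, 2.19 and 2.36 times macrophages. The co-stimulatory receptor Oscar had 125 and 144 CPM in CIA and control osteoclasts, and Siglec15 42.6 and 27.6 CPM. Calcr, the calcitonin receptor, was near the detection limit with 7 UMIs in 5 CIA cells and 1 UMI in 1 control cell. Trem2, a lipid receptor that signals through Tyrobp, was lower, at 24.4 CPM in CIA and 5.92 CPM in control osteoclasts against 919 and 746 CPM in CIA and control macrophages, while Tyrobp itself had 4742 CPM in CIA and 4229 CPM in control osteoclasts and 4742 and 4114 CPM in CIA and control macrophages. The receptor list had 5 of 13 genes higher and 4 lower in the CIA library, and 3 of 11 higher and 4 lower in the control library. For attachment, Itgb3 (integrin beta-3) had 92.9 CPM in CIA and 94.7 CPM in control osteoclasts, 57.5 and 60.5 times macrophages, its partner Itgav 107 and 94.7 CPM, and the kinase Src 140 and 134 CPM. The adhesion and actin list had 8 of 14 genes higher and 0 lower in the CIA library, and 5 of 12 higher and 0 lower in the control library.

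Genes of cell fusion were together near the macrophage level, at 2006 CPM in CIA and 2173 CPM in control osteoclasts against 2446 and 2001 CPM in CIA and control macrophages. Endothelial cells held more, 3022 CPM in the CIA library and 3020 CPM in the control library, so this sum is not particular to the lineage. Ocstamp, a membrane protein needed for fusion, had 51 UMIs in 29 CIA cells and 13 UMIs in 7 control cells (25.9 and 25.7 CPM), against 0.265 CPM in CIA and 0.116 CPM in control macrophages, below the minimum of 100 UMIs. The ratio was 97.8 in the CIA library (49.1 to 216) and 221 in the control library (50.1 to 2018). Cd81, a tetraspanin, was lower, at 57.9 CPM in CIA and 96.7 CPM in control osteoclasts against 672 and 612 CPM in CIA and control macrophages. Of 7 fusion genes measured in the CIA library 1 was higher and 1 lower, and of 6 in the control library 0 were higher and 1 lower. Dcstamp was not analysed here.

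Several activators of the lineage were above macrophages and most repressors measured were below them. Nfatc1, the master transcription factor, had 207 CPM in CIA and 203 CPM in control osteoclasts, 11.8 and 9.15 times macrophages. Jdp2, a factor of the AP-1 family, had 373 and 450 CPM in CIA and control osteoclasts, 8.72 and 8.39 times macrophages, and Prdm1, a transcriptional repressor, 47.7 and 59.2 CPM, 11.5 and 4.10 times macrophages. The transcription factor list had 6 of 14 genes higher and 2 lower in the CIA library (median log2 ratio 0.91), and 5 of 13 higher and 2 lower in the control library (0.42). The 2 lower genes in each were Fos and Jund, both of the AP-1 family: Fos had 218 CPM in CIA and 235 CPM in control osteoclasts against 980 and 1581 CPM in CIA and control macrophages. Of 8 repressors of osteoclast formation 5 were lower in each library, and 1, Lgals9, was higher in the CIA library and 0 in the control library. Irf8 had 5 UMIs in CIA and 2 UMIs in control osteoclasts (2.54 and 3.95 CPM) against 30.7 and 41.6 CPM in CIA and control macrophages. Among signals from osteoclasts to bone-forming cells, Sema4d was 23.2 times macrophages in the CIA library and 14.3 times in the control library (111 CPM in CIA and 88.8 CPM in control osteoclasts). The list did not follow it as a whole. Of 7 such genes measured in the CIA library 2 were higher and 1 lower (median log2 ratio -0.83). Of 5 in the control library 1 was higher and 1 lower (-0.17). Together the list held 220 CPM in CIA and 182 CPM in control osteoclasts, against 323 and 304 CPM in CIA and control macrophages.

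Energy genes, a list of mitochondrial and creatine enzymes, were partly above macrophages. Of 16 measured, 8 stood higher and 0 lower in the CIA library (median log2 ratio 0.94), and 7 were higher and 0 lower in the control library (0.90). Ndufa4, a respiratory chain protein, had 1535 CPM in CIA and 1281 CPM in control osteoclasts, 4.81 and 4.33 times macrophages, and Atp5f1b, of the ATP synthase, 3031 and 2303 CPM, 2.79 and 2.42 times. Tfrc, the transferrin receptor that brings in iron, had 128 CPM in CIA and 189 CPM in control osteoclasts, against 11.6 and 12.9 CPM in CIA and control macrophages. The 13 genes of the mitochondrial genome stood 1.23 to 2.28 times above CIA macrophages and 1.70 to 3.49 times above control macrophages. That range moves with the mitochondrial share of the cells given above, and the part of RNA quality in it was not tested.

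Macrophage functions were low. Of 18 macrophage genes measured in the CIA library 17 were lower and 0 higher (median log2 ratio -4.46), and of 17 in the control library 15 were lower and 0 higher (-4.45). Apoe, the lipid carrier, had 1442 CPM in CIA and 1182 CPM in control osteoclasts, against 22470 and 25583 CPM in CIA and control macrophages and 2617 and 3777 CPM in CIA and control endothelial cells, so the osteoclast level did not exceed that background. Cd68, a lysosomal membrane protein, was the 1 gene not lower in the CIA library, at 2236 CPM in CIA and 2141 CPM in control osteoclasts, 1.70 and 1.73 times macrophages. Spp1 (osteopontin) had 273 CPM in CIA and 209 CPM in control osteoclasts, against 7997 and 3168 CPM in CIA and control macrophages and 204 and 69.3 CPM in endothelial cells. These sums depended on few osteoclasts. In the control library 1 cell held 5730 CPM of Spp1 and no other more than 166 CPM, and the highest CIA cell held 4093 CPM. Cytokine genes were lower for 11 of 13 in the CIA library and 10 of 13 in the control library. Ccl9, a chemokine known from mouse osteoclasts, was the 1 higher gene, at 3228 CPM in CIA and 2429 CPM in control osteoclasts against 592 and 668 CPM in CIA and control macrophages. All 11 cell-cycle genes measured and all 14 immediate early genes measured were lower in both libraries. At least 3 cell-cycle genes were detected in 16 of 88 CIA osteoclasts (18.2%) and 1 of 27 control osteoclasts (3.70%), against 769 of 3228 CIA and 362 of 1154 control macrophages. Such counts depend on depth, with medians of 21810 and 15774 UMIs in CIA and control osteoclasts and 9976.5 and 12948 UMIs in CIA and control macrophages. Among CIA osteoclasts with over 1% of other-type markers, 1 held 84 and 1 held 97 cell-cycle UMIs, and no other CIA osteoclast held more than 13.

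**Figure D3:**
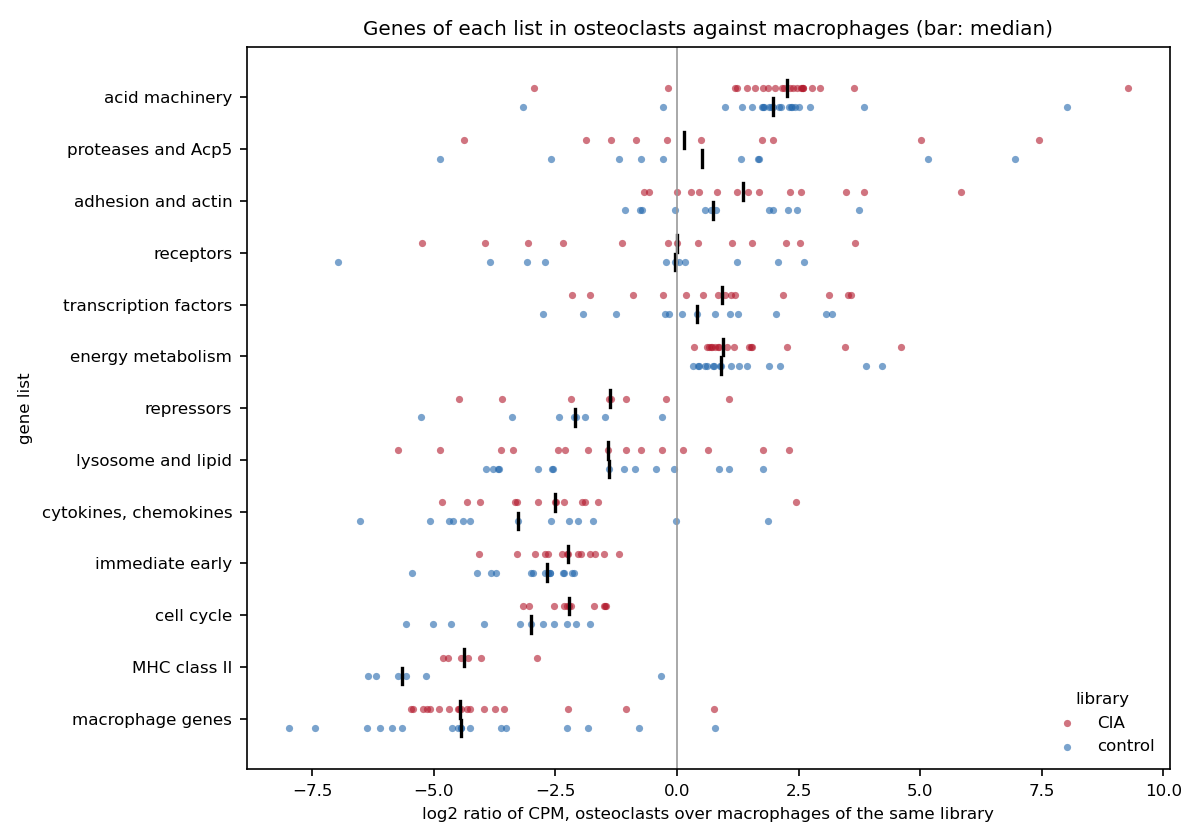
Log2 ratio of osteoclasts to macrophages of the same library for each measured gene of 13 lists, CIA above control, bar at the list's median. The acid machinery has medians of 2.26 and 1.97, and the macrophage genes -4.46 and -4.45.

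Between the libraries few genes of resorption differed by the rule of size. Of 2576 genes measured in osteoclasts of both, 29 were higher in CIA by the rule of size (1.13%) and 30 lower (1.16%), with a median log2 ratio of 0.16 over all of them. None of the 20 acid machinery genes measured passed in either direction (median 0.25, range -0.11 to 0.58), nor did any of 10 resorption enzymes (median 0.17) or 16 energy genes (0.25). Of the resorption enzymes, 1 of 9 measured was higher in CIA without the doublet calls, 1 of 9 without cells with over 1% of other-type markers, and 2 of 9 with Mmp9 of at least 2000 CPM. Ctsk was 1.18 times as high in CIA as in control osteoclasts (1.16 to 1.19), Acp5 1.02 times (0.992 to 1.05), Car2 0.966 times and Tcirg1 1.19 times (1.05 to 1.35). Sums weigh deep cells more, and the gap in Ctsk was wider by cell medians, at 53125 CPM in CIA and 32815 CPM in control osteoclasts. Cell medians were 9036 and 8240 CPM for Acp5, 1203 and 1387 CPM for Car2, and 738 and 651 CPM for Tcirg1. At or under 20% mitochondrial UMIs the Ctsk medians were 56118 CPM in CIA and 57735 CPM in control osteoclasts, with no such gap. Above 20% they were 30908 CPM in 14 CIA cells and 20851 CPM in 12 control cells. The part of the mitochondrial share in these values was not tested further. The counting intervals of the summed ratios lie inside the 2-fold limit. Ckb, at 1.49 times (1.45 to 1.54), came nearer to it, and Mt3 was lower in CIA at 0.623 times (0.607 to 0.639), beside 0.403 times in macrophages.

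Some genes of glycolysis were higher in CIA osteoclasts. Of 10 measured, 4 passed as higher and 0 as lower, with a median log2 ratio of 0.91 and all 10 above 0, beside a median of 0.52 over 11 measured in macrophages, where 0 passed. Macrophages of CIA over control were higher for 53 of 10125 genes (0.523%) and lower for 361 (3.57%). Slc16a3, the lactate exporter MCT4, had 84.8 CPM in CIA osteoclasts (167 UMIs in 59 cells) and 13.8 CPM in control osteoclasts (7 UMIs in 6 cells), a ratio of 6.14 (2.91 to 15.5) beside 1.88 in macrophages. Slc2a1, the glucose transporter GLUT1, had 77.2 CPM in CIA osteoclasts (152 UMIs in 54 cells) and 23.7 CPM in control osteoclasts (12 UMIs in 8 cells), a ratio of 3.26 (1.81 to 6.45) beside 0.855 in macrophages. The difference between the cell types was not tested.

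The glycolytic enzymes, with more UMIs behind them, gave ratios of the same direction. Pgk1, phosphoglycerate kinase, had 679 CPM in CIA osteoclasts (cell median 483) and 288 CPM in control osteoclasts (median 232), a ratio of 2.36 (1.99 to 2.82) beside 1.44 in macrophages. Ldha, lactate dehydrogenase, had 1824 CPM in CIA osteoclasts (median 1286) and 852 CPM in control osteoclasts (median 583), a ratio of 2.14 (1.94 to 2.37) beside 1.69 in macrophages. Eno1, Aldoa, Gpi, Pkm, Pgam1 and Pfkl were below the limit, with ratios of 1.55 to 1.96. The list together held 8187 CPM in CIA (cell median 6332) and 4509 CPM in control osteoclasts (median 3550), against 5716 and 4006 CPM in CIA and control macrophages. Bnip3, a mitophagy receptor known as a target of hypoxia, had 67.0 CPM in CIA osteoclasts (132 UMIs in 35 cells) and 7.89 CPM in control osteoclasts (4 UMIs in 4 cells), a ratio of 8.49 (3.24 to 31.6) beside 1.93 in macrophages. The mitochondrial share was higher in control osteoclasts. With cells of at most 20% mitochondrial UMIs, 3 of 10 glycolysis genes passed and the median log2 ratio was 0.83, and with cells thinned to 8000 UMIs 1 of 7 passed and the median was 0.85.

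**Figure D4:**
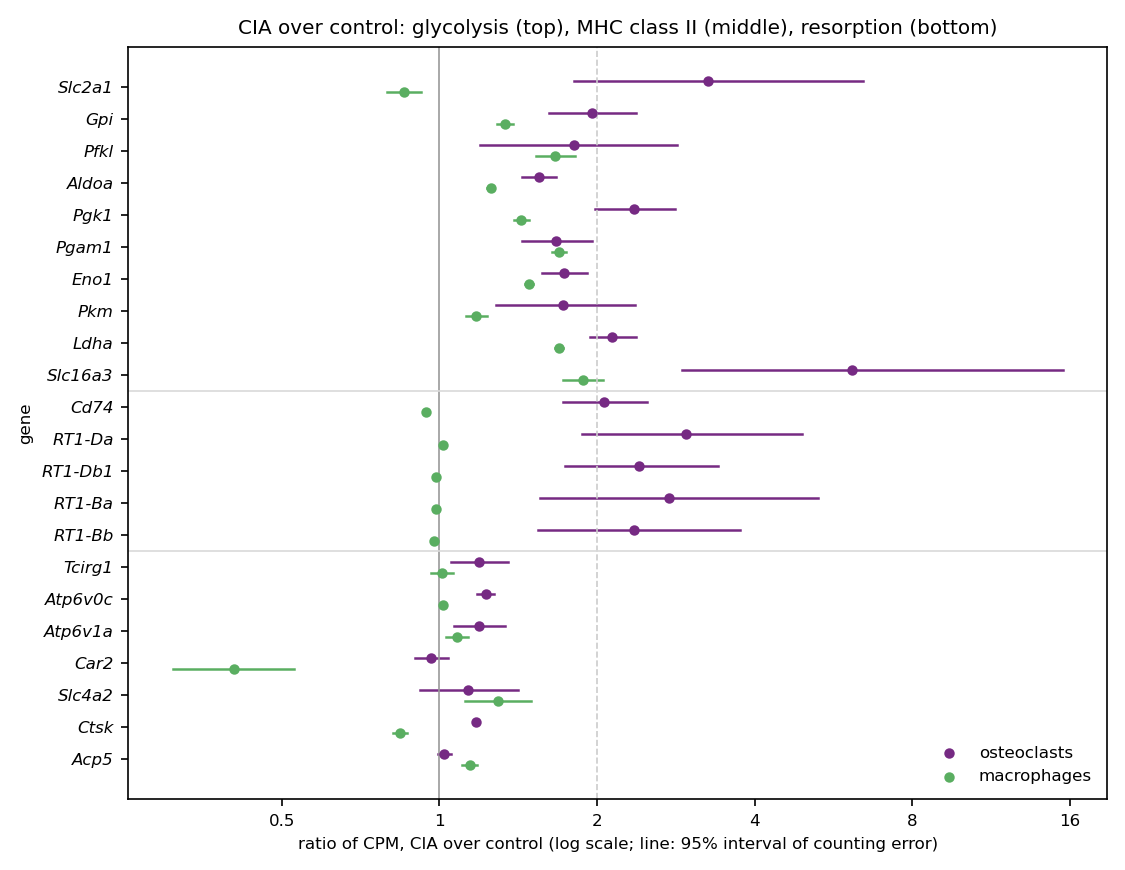
Ratio of CIA to control (log axis) with 95% counting intervals in osteoclasts (above) and macrophages (below) for glycolysis, MHC class II and resorption genes, dashed line at 2. Slc16a3 reaches 6.14 in osteoclasts and 1.88 in macrophages. The resorption genes lie near 1 in osteoclasts, while Car2 in macrophages is at 0.404 (0.310 to 0.528).

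Antigen-presentation genes were low in osteoclasts and depended on few cells. Cd74, the MHC class II invariant chain, had 534 CPM in CIA osteoclasts (cell median 204, highest 7910) and 259 CPM in control osteoclasts (median 207, highest 936), a ratio of 2.07 (1.72 to 2.50), against 8723 and 9266 CPM in CIA and control macrophages. All 5 class II genes measured passed as higher in CIA, with a median log2 ratio of 1.27. The list's summed level was 1029 CPM in CIA (cell median 485) and 452 CPM in control osteoclasts (median 388), and 868 and 838 CPM in CIA and control endothelial cells (medians 406 and 312), so by cell medians osteoclasts lay slightly above endothelial cells in each library, and by sums above them in the CIA library and below them in the control library. Without the doublet calls 0 of 5 passed, and without the cell holding most UMIs of each gene 2 of 5 passed. Lyz2, which defined the macrophages, was 3.19 times as high in CIA osteoclasts (2.93 to 3.48), at 3564 CPM against 1117 CPM in control osteoclasts, beside 1795 and 898 CPM in CIA and control endothelial cells. The ratio was 3.00 without the doublet calls, 3.53 without cells with over 1% of other-type markers and 1.602 with Mmp9 of at least 500 CPM. At least 5000 CPM of Lyz2 was found in 12 of 88 CIA and 1 of 27 control osteoclasts. Its cell medians lay near the endothelial levels of each library. At or under 20% mitochondrial UMIs they were 1858 CPM in CIA and 862 CPM in control osteoclasts. Above 20% they were 2062 and 948 CPM.

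The other genes higher in CIA osteoclasts included metabolic and surface genes. Bdh1, a mitochondrial enzyme of ketone bodies, had 78.2 CPM in CIA and 27.6 CPM in control osteoclasts, a ratio of 2.83 beside 0.962 in macrophages. Emb, a chaperone of monocarboxylate transporters, had 192 and 77.0 CPM in CIA and control osteoclasts, Slamf6, an immune receptor, 87.3 and 33.5 CPM, Ninj1, which acts in membrane rupture, 276 and 118 CPM, Fam20c, a kinase of secreted proteins, 191 and 88.8 CPM, and Ddx1, an RNA helicase, 64.0 and 17.8 CPM. Prg4, the joint lubricant lubricin made by other cells, had 763 CPM in CIA and 262 CPM in control osteoclasts, with 28.0% of the CIA UMIs in 1 cell, beside 1504 and 758 CPM in CIA and control endothelial cells.

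Many of the genes lower in CIA osteoclasts rested on single control cells. Of the 30, 12 passed without the cell holding most UMIs of the gene in each library, and of the 29 higher genes 18 did. S100a5, a calcium-binding protein, had 35.5 CPM in CIA and 197 CPM in control osteoclasts, with 48.0% of the control UMIs in 1 cell and a ratio of 0.254 without each library's top cell. The fibroblast genes Postn, Lum and Mmp2 had 93.4, 730 and 115 CPM in CIA and 489, 2552 and 357 CPM in control osteoclasts, with 53.6%, 49.3% and 44.2% of the control UMIs in 1 cell. They still passed without each library's top cell, with ratios of 0.351 for Postn, 0.442 for Lum and 0.493 for Mmp2. The cell medians of Lum were 533 CPM in CIA and 534 CPM in control osteoclasts. With Mmp9 of at least 2000 CPM the ratio turned to 1.38 for Lum and 1.55 for Mmp2, while Postn was not among the genes that turned. Control members with 35248 and 11586 CPM of Col1a1 had 1442 and 1159 CPM of Mmp9, under that limit. Fibroblast markers summed to 5159 CPM in CIA (cell median 2893) and 9741 CPM in control osteoclasts (median 3161), and neutrophil markers to 337 and 3262 CPM, of which 89.1% in the control library lay in 1 cell. Their part in the lower genes was not tested beyond these values. Other lower genes rested less on 1 cell: Gadd45g, a gene known to respond to stress, had 99.0 CPM in CIA and 288 CPM in control osteoclasts, Tsc22d1, a transcription regulator, 64.5 and 172 CPM, and Hspb1, a small heat shock protein, 121 and 292 CPM, beside 355 and 1276 CPM of Hspb1 in CIA and control macrophages. Of 10 immediate early genes measured in osteoclasts 1 was lower in CIA (Dusp1, a phosphatase), with a median log2 ratio of -0.44, against 11 of 14 and a median of -1.23 in macrophages.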

How the data were processed

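The authors deposited raw UMI counts per gene and cell, 1 matrix per library, made from Chromium 3′ version 2 libraries after TrypLE dissociation, per the labels' protocols; the deposited barcodes are longer than those of that kit. The build was mRatBN7.2, per the submitters' processing notes; aligner, counter and cell caller: not given in the sources used here. All 14078 deposited cells entered, with no further filter, and no cell had fewer than 4365 UMIs. The members and gene lists were chosen with earlier results of these data known.

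Counts were summed over the cells of a type in a library, scaled by all their UMIs, and compared as ratios with exact conditional 95% intervals; shares have Clopper-Pearson intervals. PCR and capture error and the spread between animals are outside these intervals. For a gene with 0 counts in 1 sum, the ratio was bounded with a floor of 3 counts, and it entered list medians at that bound. The 18147 genes listed for both libraries were compared (19250 listed for CIA, 19726 for control). UMI counts of 3′ tags were not scaled by gene length. Genes outside the lists were named by rank: the 15 most and least changed between libraries that also passed without each gene's top cell, and the 20 highest and 15 lowest against macrophages in both libraries. Endothelial cells were to need Pecam1 too, but Pecam1 was not analysed here, so Cdh5 alone was used. Ccr2, Cd79a, Cox7a2, Dcstamp, Gapdh, Hba-a1, Hspa1b, Ighm and Marco were likewise not analysed here.

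The software was Python 3.11.15 with pandas 2.3.3, scipy 1.17.1, numpy 2.4.6, scikit-learn 1.9.0, scanpy 1.11.5 and anndata 0.12.19, and matplotlib 3.10.9 drew the figures. Doublets were called per library with Scrublet (seed 0) and left in, except in the stated alternative. TMM factors, an alternative scaling, came from edgeR 4.0.16 in R 4.3.3. The ratio script was checked on simulated data.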

Additional observations from a re-analysis of the deposited data

Results flagged for a closer look

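For 7 genes the osteoclasts and the macrophages, or the libraries, moved in opposite directions, and the difference itself was not tested, since each group is 1 library. Crabp2, a carrier of retinoic acid, was lower in CIA osteoclasts at 0.5 times control (187 against 375 CPM) but 2.56 times as high in CIA as in control macrophages (43.7 against 17.1 CPM). Lrp1, an endocytic receptor, was 0.465 times in osteoclasts (114 CPM in CIA, 245 CPM in control, where 45.2% of the UMIs lay in 1 cell) and 2.34 times in macrophages. Without each library's top cell the osteoclast ratios were 0.565 for Crabp2 and 0.731 for Lrp1, and neither passed the rule of size. Against macrophages, S100a9 was 0.142 times in the CIA library and 3.44 times in the control library, and S100a8 0.213 and 2.04 times, with 95.6% and 94.6% of the control osteoclast UMIs in 1 cell. Postn was 0.478 times macrophages in the CIA library and 2.60 times in the control library, and Serping1, a complement inhibitor, 0.481 and 2.01 times, with 53.6% and 60.5% of the control UMIs in 1 cell. From CIA to control osteoclasts Serping1 was 0.251 times, and 0.554 times without each library's top cell, where it did not pass the rule of size. Srpx was 0.0913 times macrophages in the CIA library (1 UMI in osteoclasts) and 3.47 times in the control library (10 UMIs).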

How the results depend on the processing

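The share of osteoclasts moved to 0.277% of control cells with at most 20% mitochondrial UMIs, and to 2.65% (CIA) and 2.29% (control) when counted among osteoclasts and macrophages, a denominator chosen after seeing the data. Genes higher in CIA than control osteoclasts numbered 29, and 18 without the 50 most abundant genes in the total (with 38 lower), 45 at a minimum of 50 UMIs, 14 at 200 and 58 at none, 10 with cells thinned to 8000 UMIs, and 18 with Mmp9 of at least 500 CPM. Genes lower numbered 30, and 46, 19 and 152 at those minimums, 10 thinned, 11 without cells with over 1% of other-type markers, 9 with Mmp9 of at least 2000 CPM, and 12 without each gene's top cell. Against macrophages, lower genes in the CIA library went to 774 thinned, and in the control library higher genes to 748 at no minimum and 298 thinned, and lower genes to 441 thinned. Thinning leaves fewer UMIs and fewer cells; the cause of the other moves was not tested.

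The direction turned for few named genes. With Mmp9 of at least 2000 CPM the CIA to control ratio was 1.49 for Col1a1, 1.38 for Lum, 1.55 for Mmp2 and 1.36 for S100a8. Thinned, it was 1.10 for S100a9 and 2.74 for S100a8, and S100a8 was 1.502 without cells of other-type markers and 1.23 without its top cell. RGD1559482 was 0.741 with Mmp9 of at least 500 CPM. Thinned control osteoclasts over macrophages gave 0.126 for S100a9 and 0.0604 for S100a8. The cause was not tested. Of 396 recomputed CIA to control ratios of 33 genes, 338 stayed within their counting interval, 49 moved beyond it and 9 turned. Against macrophages, 947 of 1120 (CIA) and 925 of 1069 (control) stayed within it, with 0 and 2 turned. No paired analysis was possible because each group has 1 library. The 27 control osteoclasts, with 506746 UMIs in all, limit what can be measured: 2576 genes reached 100 UMIs, and calls below that minimum rest on few molecules.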

Other observations

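Genes of lysosomes and lipid handling differed from macrophages in both directions. Of 15 lysosomal and lipid genes 2 were higher and 9 lower in each library. The higher ones were Fabp4, a fatty acid carrier, at 2062 CPM in CIA and 1431 CPM in control osteoclasts against 609 and 679 CPM in CIA and control macrophages, and Lpl, lipoprotein lipase, at 411 and 251 CPM against 83.5 and 73.7 CPM. Lamp1, a major lysosomal membrane protein, had 58.9 CPM in CIA and 47.4 CPM in control osteoclasts against 613 and 607 CPM in CIA and control macrophages. Among the macrophage genes, Mrc1, the mannose receptor, had 11 UMIs in CIA and 1 UMI in control osteoclasts (5.58 and 1.97 CPM), against 166 and 137 CPM in CIA and control macrophages. Aif1, an actin-binding protein of macrophages, had 26.9 CPM in CIA and 9.87 CPM in control osteoclasts against 916 and 817 CPM in CIA and control macrophages.

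Heat shock genes differed between the libraries more in macrophages than in osteoclasts. Of 8 measured in macrophages 5 were lower in CIA than in control (median log2 ratio -1.67), and in osteoclasts 1 of 7 was (median -0.13). The list summed to 1966 CPM in CIA and 2015 CPM in control osteoclasts, and to 2108 and 6228 CPM in macrophages. In endothelial cells the sums were 3123 and 5668 CPM, so the lower level in CIA was not particular to macrophages. The difference between the cell types was not tested.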
